A study of Rattus norvegicus with 22 samples.

Results

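The granulocyte granule genes are 9 genes, Prg2, Epx, Mpo, Mmp8, S100a8, S100a9, Camp, Elane and Ltf, of the 32883 genes in a read count table from rat spinal cord. They were chosen by name, with earlier results from this count table known, and the measured value named in that choice is their low read count. What else weighed in the choice is not recorded, so all their values below are descriptions, and the fitted values printed for single members test nothing about the set. Each symbol was found once in the table. Of the 9, 8 had reads in at least 1 library, and Ltf had no read in any of the 22.

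RNA was sequenced from the ventral cervical spinal cord (C3-C6) of 22 young adult Sprague-Dawley rats, 1 library per rat. The groups were 5 intact males (rats 1, 2, 3, 5 and 6), 5 castrated males (GDX; rats 1, 2, 4, 5 and 6), 6 intact females and 6 ovariectomised females (OVX; rats 1 to 6 in each). Castration or ovariectomy was done under isoflurane with buprenorphine for pain, and the cords were taken a fortnight later, after saline had been perfused through the heart. The intact rats were age-matched, and no sham operation is described, so that loss of the gonads cannot be told apart from the surgery, its anaesthesia and its analgesic.

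Granulocytes are short-lived white blood cells made in the bone marrow, and they carry antimicrobial and digestive proteins in cytoplasmic granules. Neutrophils and eosinophils load most of these granules as immature marrow cells, when the genes for the granule proteins are most strongly transcribed, while the calcium-binding proteins S100a8 and S100a9 remain abundant in mature neutrophils and in monocytes. In the healthy nervous system granulocytes are rare within the tissue, and are found mainly in blood vessels, in the meninges and in the marrow of the surrounding skull and vertebrae.

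In RefSeq's gene order for the rat build GRCr8, Mpo and Epx lie on chromosome 10 with Lpo and Mks1 between them, and S100a8 lies next to S100a9 on chromosome 2. Prg2 lies next to its paralog Prg3 on chromosome 3, Elane next to Prtn3 on chromosome 7, and Mmp8, Camp and Ltf lie on chromosome 8. RefSeq promoter entries were found for 6 of the 9 members, namely Epx, Mpo, Mmp8, S100a9, Camp and Ltf, and not for Prg2, S100a8 and Elane. The 250 bases before the start site of S100a9, Mmp8 and Epx are printed 5′ to 3′ along the gene's strand, because these 3 genes were high together in GDX males 4, 5 and 6 and stand for 3 roles, namely cytosolic protein, neutrophil granule and eosinophil granule. S100a9 is at chr2:178490623-178490872 on the minus strand, Mmp8 at chr8:13008640-13008889 on the plus strand and Epx at chr10:73175181-73175430 on the minus strand.
S100a9: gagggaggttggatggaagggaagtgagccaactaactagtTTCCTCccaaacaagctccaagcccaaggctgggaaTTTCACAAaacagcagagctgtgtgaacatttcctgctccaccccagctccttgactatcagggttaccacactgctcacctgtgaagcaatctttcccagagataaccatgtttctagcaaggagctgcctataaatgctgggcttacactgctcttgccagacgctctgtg
Mmp8: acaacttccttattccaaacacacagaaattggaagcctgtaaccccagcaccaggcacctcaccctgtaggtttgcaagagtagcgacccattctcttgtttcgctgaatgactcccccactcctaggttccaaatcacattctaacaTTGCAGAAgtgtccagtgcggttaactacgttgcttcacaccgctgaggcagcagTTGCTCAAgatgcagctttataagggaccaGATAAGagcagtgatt
Epx: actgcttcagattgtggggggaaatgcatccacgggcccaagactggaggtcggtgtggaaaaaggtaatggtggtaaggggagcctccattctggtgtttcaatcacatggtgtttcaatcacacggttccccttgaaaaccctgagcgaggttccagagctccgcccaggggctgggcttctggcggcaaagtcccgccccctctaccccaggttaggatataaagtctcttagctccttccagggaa
Capitals mark matches, on either strand and without overlap, to 3 short motifs of factors that act in granulocyte precursors: TTNCNNAA for C/EBP factors, GAGGAA for PU.1 and GATAAG for GATA factors. S100a9 held a C/EBP-type match at -173 and a PU.1-type match at -209 from its start. Mmp8 held C/EBP-type matches at -101 and -46 and a GATA-type match at -16, and Epx held none of the 3 motifs. Over the 6 members with an entry, 3 held the C/EBP motif, 2 the PU.1 motif and 1 the GATA motif. Among all 33469 promoters the shares with a match were 37.2%, 23.3% and 6.18%. A match is a description of letters and not a bound site.

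Library totals ran from 12371756 to 17571887 counted reads. The median total was 14196615 for the intact males and 15645521 for the GDX males, and for females it was 14640726 (intact) and 14766802.5 (OVX). At these depths, a floor of 3 reads corresponded to 0.167 to 0.240 CPM (read counts scaled to a common library size with TMM factors) in single libraries. Intervals and floors given here cover counting error only. The 9 members together had 1360 reads in all 22 libraries, of which S100a9 had 403 (29.6%). Granule genes were thus near the floor in most rats, and single reads weigh on their values.

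GDX males 4, 5 and 6 stood apart from all other libraries. They held 641 of the 1360 member reads (47.1%), against 14.1% of all counted reads. Of the 8 members with any read, 7 had their highest level in GDX male 4, and Mmp8 had it in GDX male 6. In 6 members, all of GDX males 4, 5 and 6 were above every intact male in CPM, as were 6.83% of all genes, and nothing is read from this count, since these libraries are singled out for the same genes. Summed ratios, main fits and correlations of the granule genes with other gene lists are therefore given with and without these 3 libraries. That choice was made after the values were seen.

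**Figure D1:**
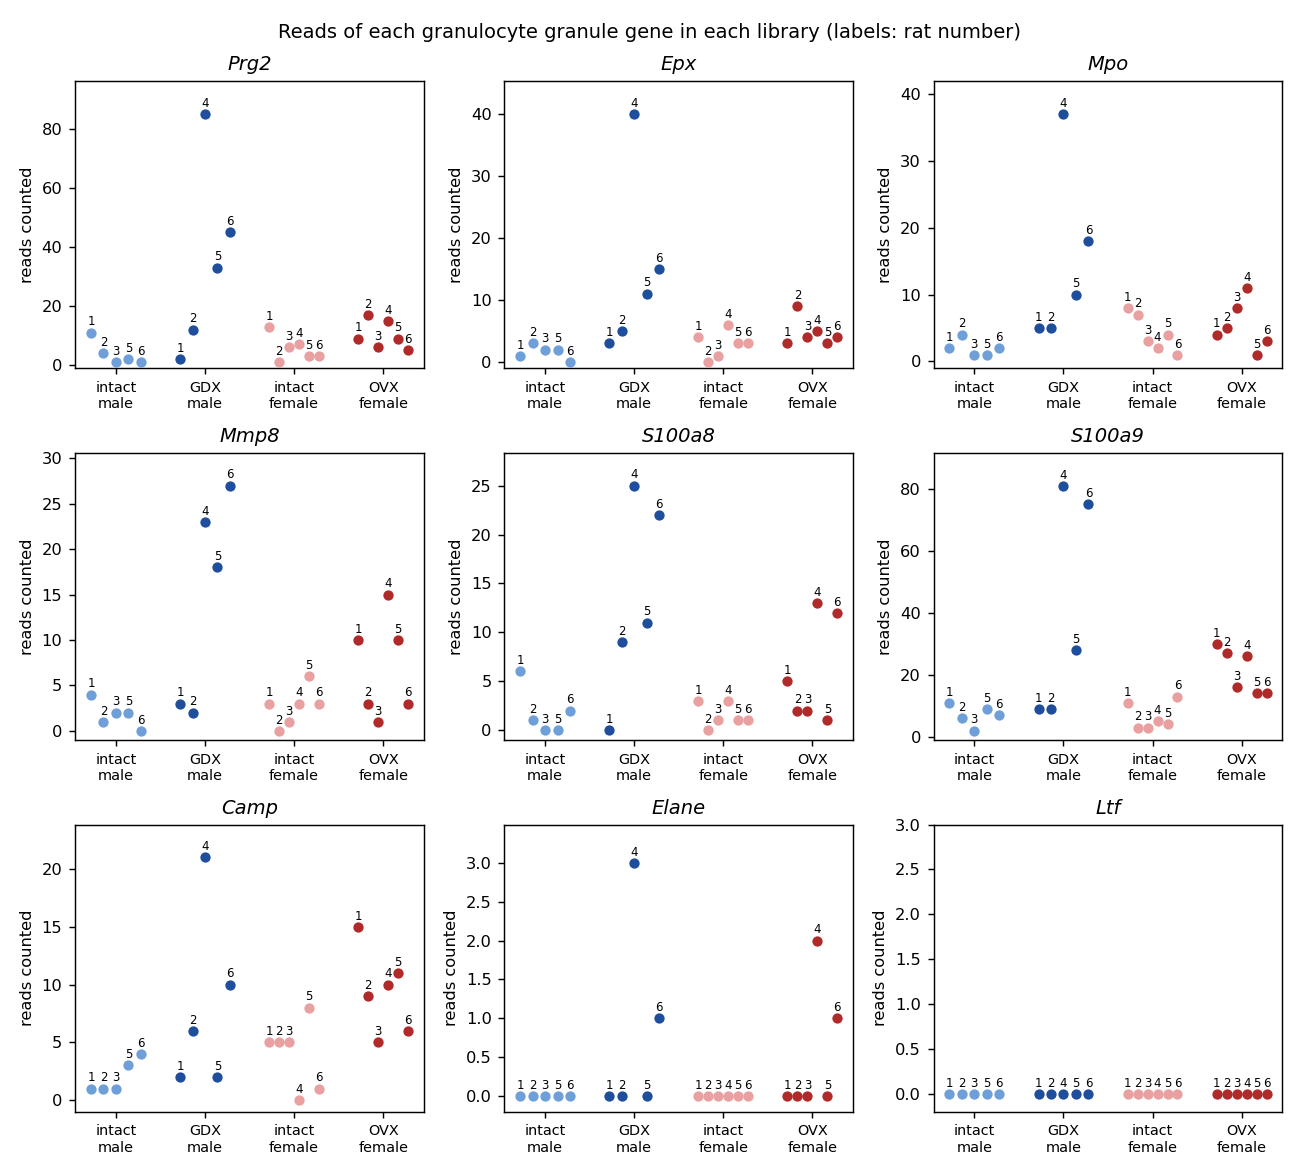
Reads counted for each of the 9 granule genes (vertical axis, a linear scale for each gene) in each library, by group, with the rat number above each point. GDX males 4, 5 and 6 lie high for most genes, Elane has at most 3 reads in a library and Ltf has none.

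Prg2 and Epx encode proteins of eosinophil granules. Prg2 (ENSRNOG00000008394), the gene of the major basic protein, had 11, 4, 1, 2 and 1 reads in intact males 1, 2, 3, 5 and 6. In GDX males 1, 2, 4, 5 and 6 it had 2, 12, 85, 33 and 45 reads. GDX males 4, 5 and 6 were thus high, while GDX male 1 lay within the range of the intact males and the groups overlapped. In CPM GDX male 2 lay within that range as well, at 0.692 CPM against 0.779 CPM in intact male 1. The group means were 0.268 ± 0.3 CPM in intact males (SD, n = 5) and 2.37 ± 2.2 CPM in GDX males (SD, n = 5), an 8.83-fold ratio of means. GDX males 1 and 2 alone had a mean of 0.413 CPM. Intact females had 1 to 13 reads of Prg2 with a median of 4.5, and OVX females had 5 to 17 with a median of 9. These female ranges overlapped, at 0.352 ± 0.24 and 0.661 ± 0.255 CPM (SD, n = 6 each).

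Epx (ENSRNOG00000008707), the eosinophil peroxidase gene, had 1, 3, 2, 2 and 0 reads in intact males 1, 2, 3, 5 and 6. It had 3, 5, 40, 11 and 15 reads in GDX males 1, 2, 4, 5 and 6, again with GDX males 4, 5 and 6 high and GDX male 1 within the intact range. Mean levels were 0.114 ± 0.0836 CPM in intact and 0.989 ± 1.01 CPM in GDX males (SD, n = 5 each). In females the ranges overlapped, with 0 to 6 reads (median 3) in intact and 3 to 9 reads (median 4) in OVX rats.

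Mpo and Elane encode enzymes of the neutrophil's primary granules, which form first, at the promyelocyte stage. Mpo (ENSRNOG00000008310), myeloperoxidase, had 2, 4, 1, 1 and 2 reads in intact males 1, 2, 3, 5 and 6, and 5, 5, 37, 10 and 18 in GDX males 1, 2, 4, 5 and 6. All GDX counts of Mpo were above all intact male counts, but in CPM GDX male 2, at 0.289 CPM, was under intact male 2, at 0.296 CPM. The means were 0.141 ± 0.0931 and 1.0 ± 0.909 CPM (SD, n = 5 each). Intact females had 1 to 8 reads of Mpo (median 3.5) and OVX females 1 to 11 (median 4.5), so the female groups overlapped almost entirely. Elane (ENSRNOG00000033685), neutrophil elastase, had 7 reads in 4 libraries, with 3 in GDX male 4, 1 in GDX male 6, 2 in OVX female 4 and 1 in OVX female 6. It had none in any intact rat, and at or under the floor in every library no fold is given.

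Mmp8, Camp and Ltf encode proteins of the later neutrophil granules. Mmp8 (ENSRNOG00000009907), neutrophil collagenase, had 4, 1, 2, 2 and 0 reads in intact males 1, 2, 3, 5 and 6, and 3, 2, 23, 18 and 27 in GDX males 1, 2, 4, 5 and 6. GDX males 1 and 2 lay within the intact male range, and GDX males 4, 5 and 6 lay above it. OVX females had 1 to 15 reads of Mmp8 (median 6.5) and intact females 0 to 6 (median 3), with overlap. Camp (ENSRNOG00000020733), the cathelicidin precursor, had 1, 1, 1, 3 and 4 reads in intact males 1, 2, 3, 5 and 6. In GDX males 1, 2, 4, 5 and 6 Camp had 2, 6, 21, 2 and 10 reads, so that GDX male 5 was low for this gene. In OVX females Camp had 5 to 15 reads (median 9.5), against 0 to 8 (median 5) in intact females. Ltf (ENSRNOG00000031779), lactoferrin, had 0 reads in all 22 libraries, which allows up to 0.167 to 0.240 CPM in single libraries.

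S100a8 and S100a9 encode the subunits of calprotectin, a cytosolic protein of neutrophils that binds calcium and zinc. S100a8 (ENSRNOG00000011557) had 6, 1, 0, 0 and 2 reads in intact males 1, 2, 3, 5 and 6, and 0, 9, 25, 11 and 22 in GDX males 1, 2, 4, 5 and 6. GDX male 1 was thus at 0 beside 4 higher GDX males. Intact females had 0 to 3 reads of S100a8 (median 1) and OVX females 1 to 13 (median 3.5), the high OVX values being those of rats 4 and 6. S100a9 (ENSRNOG00000011483) had 11, 6, 2, 9 and 7 reads in intact males 1, 2, 3, 5 and 6, and 9, 9, 81, 28 and 75 in GDX males 1, 2, 4, 5 and 6. In females S100a9 had 3 to 13 reads (median 4.5) in intact and 14 to 30 (median 21) in OVX rats. Every OVX female was above every intact female, at 1.09 to 1.73 CPM against 0.187 to 0.984 CPM. It was the 1 member of 8 whose female groups did not overlap, beside 57 of 23681 genes that were higher in OVX without overlap (0.241%). In males 0 of 8 members had groups that did not overlap, beside 2.38% of all genes that were higher in GDX males without overlap.

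Neutrophil and eosinophil genes were both high in the same GDX libraries. The eosinophil genes Prg2 and Epx held 27 of 100 member reads in intact males (27.0%, exact binomial 95% interval 18.6 to 36.8%) and 251 of 713 in GDX males (35.2%, 31.7 to 38.8%). Their share was 30.7% in intact females (50 of 163 reads, 23.7 to 38.4%) and 23.2% in OVX females (89 of 384, 19.0 to 27.7%). Among single libraries with many reads it was 39.7% in GDX male 4 (34.2 to 45.3%) and 38.9% in GDX male 5 (29.9 to 48.6%). In GDX male 6 it was 28.2% (22.2 to 34.7%), and these intervals overlapped. Pooled reads mix rats, and the intervals hold no variation between rats.

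Across all 22 libraries the 7 members with at least 50 reads were compared in pairs on log2 CPM, as a description. Pearson's r of the 21 pairs ran from 0.38 (Camp and Epx) to 0.86 (Epx and Prg2), with a median of 0.7. Without GDX males 4, 5 and 6 (n = 19) it ran from -0.06 (Mmp8 and Mpo) to 0.64 (S100a8 and Prg2), with a median of 0.39, so much of the likeness rested on those libraries. Over all 22, Camp was the member that followed the others least.

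Summed over the 9 members, intact males 1, 2, 3, 5 and 6 had 36, 20, 9, 19 and 16 reads. GDX males 1, 2, 4, 5 and 6 had 24, 48, 315, 113 and 213, with 95% Poisson intervals of 15.4 to 35.7, 35.4 to 63.6, 281 to 352, 93.1 to 136 and 185 to 244. GDX male 1 lay inside the intact male range, and the intervals of GDX males 4, 5 and 6 lay above those of GDX males 1 and 2 and above the count of every intact male. In CPM the means were 1.39 ± 0.711 in intact and 9.5 ± 8.17 in GDX males (SD, n = 5 each), a 6.85-fold ratio with a log2 value of 2.78 beside a pooled SD of 1.21. With GDX males 4, 5 and 6 left out the log2 ratio was 0.65. Over all 10 males, the difference of the group means of log2 summed CPM was 2.34. The mean over the members of log2 CPM with a prior count of 2, which weighs all members alike and draws low counts together, differed by 1.39. In bulk tissue, a change in the number of such cells and a change in the RNA of each cell cannot be told apart.

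Summed reads ran from 16 to 47 in intact females and from 42 to 97 in OVX females. The levels did not overlap, at 1.11 to 2.64 CPM (median 1.9) against 3.14 to 5.41 CPM (median 4.16). The means were 1.79 ± 0.554 and 4.18 ± 0.769 CPM (SD, n = 6 each), a 2.34-fold ratio with a log2 value of 1.23 beside a pooled SD of 0.38. As a difference of the group means of log2 summed CPM the female value was 1.27, and the mean over the members of log2 CPM with the prior count differed by 0.69. The order of the group means was intact males, intact females, OVX females and GDX males, and the intact groups did not differ beyond their spread. The place of the GDX males in that order rested on rats 4, 5 and 6, since GDX males 1 and 2, at 1.59 and 2.77 CPM, were under every OVX female.

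The study reports an average input fragment size for each library, and these sizes were split here into a long and a short class. The long class held males 1, 3 and 6 of the intact group and females 2, 3, 5 and 6 of the intact group, and the short class held all GDX and OVX libraries. Within intact males the summed level was 1.33 CPM in the short class (n = 2) and 1.43 CPM in the long class (n = 3). Within intact females it was 2.27 CPM (n = 2) and 1.54 CPM (n = 4). Among short-class females alone the log2 ratio of OVX to intact was 0.88.

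**Figure D2:**
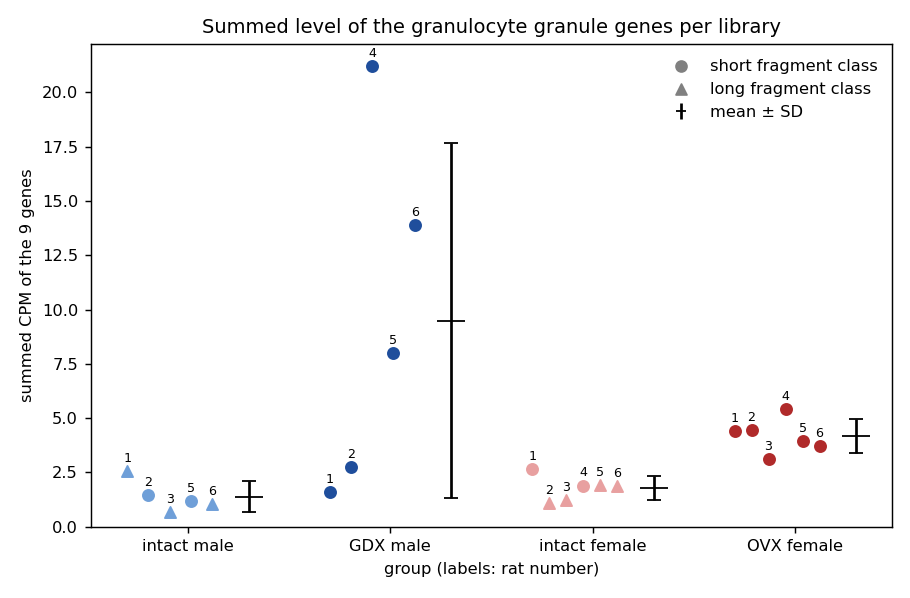
Summed CPM of the 9 granule genes in each library by group, with the rat number above each point, the fragment class as the marker shape, and the mean and SD of each group in black. GDX males 4, 5 and 6 lie at 21.2, 8.01 and 13.9 CPM, and all OVX females lie above all intact females.

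The comparison of GDX with intact males asks which transcripts differ when the testes have been removed. With edgeR fitted on all genes that passed a filter on low counts, 1 member, Prg2, could be tested, and it passed the filter through the GDX libraries in which it was high. Its log2 fold change was 3.12 (SE 0.79, edgeR adjusted p = 0.0266), beside 13.4% of all tested genes called in either direction and 6.78% called higher at an adjusted p under 0.1. Without GDX males 4, 5 and 6 the log2 fold change of Prg2 was 0.67 (SE 0.87, edgeR adjusted p = 0.819), in a fit that called 0.297% of all tested genes. With fragment class in the model its log2 fold change was 3.48 (SE 1.23) and its call was lost (edgeR adjusted p = 0.143), in a fit that called 5.33% of all tested genes, within the range of 0.00238 to 0.827 over its alternatives. With 1 library left out, Prg2 was called each time, and 2 members were called without intact male 2, 3, 5 or 6 or GDX male 1 or 2. In those fits 2 members passed the filter, and 9.84 to 16.2% of all tested genes were called. With no filter, 6 of the 8 members with reads were called higher, beside 3.68% of all genes. Those were Prg2 at 3.11 (edgeR adjusted p = 0.0122), Mpo at 2.76 (0.0127), S100a9 at 2.45 (0.0132), Epx at 3.04 (0.015), Mmp8 at 2.87 (0.022) and S100a8 at 2.73 (0.0534). Camp at 1.9 (edgeR adjusted p = 0.123) and Elane (0.336) were not called. With GDX males 4, 5 and 6 left out the unfiltered fit called 0 of 7 members, 0 had an unadjusted p under 0.05, and it called 1.31% of all genes. The members were then at 1.11 (Mpo), 1.08 (Epx), 1.06 (S100a8), 0.8 (Camp), 0.65 (Prg2), 0.3 (Mmp8) and 0.21 (S100a9). Since the members were chosen with these counts known, nothing is read from these numbers.

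For females, the question is what differs after removal of the ovaries. In edgeR 1 member, S100a9, passed the filter, through the OVX libraries in which it was high, and 0 members were called, beside 0.0335% of all tested genes. At an unadjusted p under 0.05 the count was 1, beside 10.2% of all tested genes. DESeq2 called 0 members and 1.17% of all genes, and edgeR's likelihood ratio test called 1 member and 0.671% of all genes. S100a9 had a log2 fold change of 1.67 (SE 0.34, edgeR adjusted p = 0.141), higher in 6 of 6 OVX females than in any intact female. The call of S100a9 depended on single rats, with a log2 fold change of 1.82 without intact female 1 and 2.03 without intact female 6, each then called, and its adjusted p ran from 0.000638 to 0.584 over its alternatives. With no filter, 0 of 8 members were called in edgeR and 4 had an unadjusted p under 0.05, beside 8.56% of all genes. All 8 had a positive sign, beside 50.4% of all genes. The unfiltered log2 fold changes were 1.87 for S100a8, 1.66 for S100a9, 1.32 for Mmp8 and 1.21 for Camp, and they were smaller for Prg2 at 0.88, Epx at 0.69 and Mpo at 0.35.

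Intact males were set against intact females to ask which transcripts differ by sex. No member passed the filter, so that none could be called in edgeR, DESeq2 or the likelihood ratio test, and edgeR called 4.01% of all tested genes. With no filter 0 of 7 members were called in edgeR, beside 2.39% of all genes, and 0 had an unadjusted p under 0.05, beside 11.8% of all genes. These low counts do not show that the sexes were alike.

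The interaction of sex and gonadectomy asks whether castration and ovariectomy differed in effect. In edgeR 4 members passed its filter and 0 were called, beside 0.116% of all tested genes. At an unadjusted p under 0.05 the count was 1, beside 11.6% of all tested genes, and DESeq2 and the likelihood ratio test gave 0, beside 1.56% and 1.18%. The difference in log2 fold change, males minus females, was 2.24 for Prg2 (SE 0.98, edgeR adjusted p = 0.369) and 1.55 for Mmp8 (SE 1.11, adjusted p = 0.624). It was 0.87 for S100a8 (SE 1.33, edgeR adjusted p = 0.855) and 0.79 for S100a9 (SE 0.78, adjusted p = 0.754). Members passed this filter through the GDX or OVX libraries in which they were high. With no filter 0 of 8 were called and 3 had an unadjusted p under 0.05, beside 9.35% of all genes. Those were Mpo at 2.42 (SE 0.85, edgeR adjusted p = 0.316), Epx at 2.36 (SE 0.97, adjusted p = 0.431) and Prg2 at 2.23 (SE 0.92, adjusted p = 0.431). Without GDX males 4, 5 and 6 the sign turned for all 4 members of the filtered fit, to -0.22 for Prg2 (SE 0.98), -1.03 for Mmp8 (SE 1.23), -0.8 for S100a8 (SE 1.4) and -1.45 for S100a9 (SE 0.66). In that edgeR fit 0 of 5 members and 0 of 16113 genes were called, and 1 member, S100a9, had an unadjusted p under 0.05. With no filter Mpo was then at 0.76 (SE 0.91) and Epx at 0.39 (SE 1.01).

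Other granulocyte genes were taken from 3 lists, of 25 further granule and secreted products, 20 surface receptors and 13 regulators of granulocyte formation in the table. In GDX against intact males 23 of these 58 genes passed the filter, and 6 (26.1%) were called higher and 0 lower in edgeR. Of all tested genes 6.78% were called higher and 13.4% in either direction. The median log2 fold change of the 23 was 0.28, beside 0.0 for all tested genes, and 21 of 23 had a positive sign. With GDX males 4, 5 and 6 left out, edgeR called 0 of 24 in these lists, where 3 had an unadjusted p under 0.05, and that fit called 46 of 15470 genes (0.297%). With 1 library left out, the count was 9 without GDX male 1 and 4 without intact male 3. The count was 1 without intact male 5 and 2 without GDX male 4 or without GDX male 5. It was 3 without intact male 1, 2 or 6, and also 3 without GDX male 2 or 6. The fits with 1 library left out called 7.99 to 16.2% of all tested genes.

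The genes called in GDX males were Cd63, Srgn, Lyz2, Chi3l1, Lcn2 and Adgre1. Cd63, a tetraspanin of granule and lysosome membranes, had a log2 fold change of 0.29 (SE 0.06, edgeR adjusted p = 0.0105), and of 0.29 without GDX males 4, 5 and 6 as well (adjusted p = 0.185). Srgn encodes serglycin, a proteoglycan that packs granule contents, and was at 0.49 (SE 0.14, edgeR adjusted p = 0.0473). Without GDX males 4, 5 and 6 it was at 0.62 (edgeR adjusted p = 0.208), so the size of these effects did not rest on those rats. Srgn was not called without intact male 5 (0.47) or without GDX male 2 (0.44). Lyz2, a lysozyme gene also active in microglia and macrophages, differed from both. It was at 0.68 (SE 0.22, edgeR adjusted p = 0.0724) and at -0.03 without GDX males 4, 5 and 6 (adjusted p = 0.967). Its counts were 218, 349, 493, 602 and 496 in GDX males 1, 2, 4, 5 and 6 and 224 to 299 in intact males. With 1 library left out, Lyz2 was called only without intact male 1, GDX male 1 or GDX male 2, and was at 0.49 without GDX male 5. The last 3 were Chi3l1 at 0.13 (edgeR adjusted p = 0.0867), Lcn2 at 1.05 (0.0912), and the macrophage and eosinophil receptor Adgre1 at 0.28 (0.0916). With GDX males 4, 5 and 6 left out these were at 0.1 (edgeR adjusted p = 0.514), 1.04 (0.429) and 0.32 (0.372). With 1 library left out, Adgre1 was called only without intact male 3 or GDX male 1. Neither Chi3l1 nor Lcn2 was called without intact male 1 or 5 or GDX male 4 or 5.

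Of the 25 further granule genes, 16 were too low for the test in males and 14 of these had reads. In 6 of the 14, namely Np4, Ngp, Fcnb, Defa5, Prg3 and Retnlg, all of GDX males 4, 5 and 6 were above every intact male in CPM (6.83% over all genes), and in the other 8 (Padi4, Olfm4, Pglyrp1, Mmp9, Alox15, Ctsg, Prtn3 and Rnase2) they were not. By reads, GDX male 5 and intact male 5 were level for Fcnb, at 12 each, and for Defa5, at 6 each. Those described next were picked after their counts were seen. Np4, a neutrophil defensin gene, had 8, 2, 55, 21 and 46 reads in GDX males 1, 2, 4, 5 and 6 and 0 to 8 in intact males. Ngp, a neutrophil granule protein, had 5, 3, 47, 14 and 21 in the same GDX males and 4 to 11 in intact males. Prg3, the paralog of Prg2, had 9, 7 and 6 reads in GDX males 4, 5 and 6, and 0 in GDX males 1 and 2. Retnlg had 4, 3 and 6 reads in GDX males 4, 5 and 6, and 0 in all other males. Prtn3, the neighbour of Elane, was alike in both male groups, with 4, 0, 3, 2 and 1 reads in GDX males 1, 2, 4, 5 and 6 and 5, 0, 0, 4 and 1 in intact males 1, 2, 3, 5 and 6. In females Prtn3 was lower in OVX than in intact rats, with median reads of 1.5 against 4. Median reads were higher in OVX females for Np4 (6.5 against 2), Ngp (5.5 against 2.5), Prg3 (2.5 against 0.5) and Retnlg (0.5 against 0). The female ranges of all of these overlapped. Pglyrp1 had 9, 3 and 5 reads in GDX males 4, 5 and 6 against 3 to 12 in intact males, and Alox15 had 4, 0 and 6 against 1 to 7. Ctsg, the cathepsin G gene of the same primary granules, had 16 reads in all 22 libraries, and Bpi and Rnase3 had none. How reads shared by paralogs such as the defensins, or Prg2 and Prg3, were assigned is not stated.

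Receptors that mark mature neutrophils and eosinophils were at or near 0. Cxcr1 and Trem1 had no read in any library, while over all 22 libraries Cxcr2 had 19, Cd177 12, Fpr1 8 and Il5ra 8. The most abundant surface gene was the integrin Itgb2 at 14.9 CPM, which microglia also express. Among the regulators, Csf3 had no read, and Gata1 had 1, Cebpe 12 and Gfi1 14 in all libraries together. Other regulators had reads in each of the 22 libraries. Cebpa, the most abundant, had 2039 reads in all, Spi1 2010, Gata2 1494 and Runx1 1379. Cebpd had 1320, Csf2rb 1309 and Myb 513. None of the 7 regulators tested was called in any comparison in edgeR. In GDX males 0 had an unadjusted p under 0.05, beside 23.8% of all tested genes.

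In OVX against intact females 0 of the 23 genes of these lists that were tested were called in edgeR, beside 0.0335% of all tested genes. At an unadjusted p under 0.05 the count was 5, beside 10.2% of all tested genes. DESeq2 called 2 and the likelihood ratio test 1, beside 1.17% and 0.671% of all tested genes. The lowest adjusted p was that of Cybb, a subunit of the phagocyte oxidase, at a log2 fold change of 0.47 (edgeR adjusted p = 0.172). In intact males against intact females 2 were lower in males, Cd63 at -0.24 (SE 0.06, edgeR adjusted p = 0.0468) and Chi3l1 at -0.14 (SE 0.04, adjusted p = 0.0574). The count called in either direction was 0 without intact male 1, intact male 5 or intact female 4, and 1 without intact male 2 or 6 or intact female 5 or 6. Without intact female 2 it was 4, of which 1 was higher in males. Of all tested genes 4.01% were called between the intact sexes, and 2.33 to 5.25% with 1 library left out. For the interaction 0 of 26 were called in edgeR and 3 had an unadjusted p under 0.05, beside 0.116% and 11.6% of all tested genes. DESeq2 and the likelihood ratio test gave 0 there, beside 1.56% and 1.18%.

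**Figure D3:**
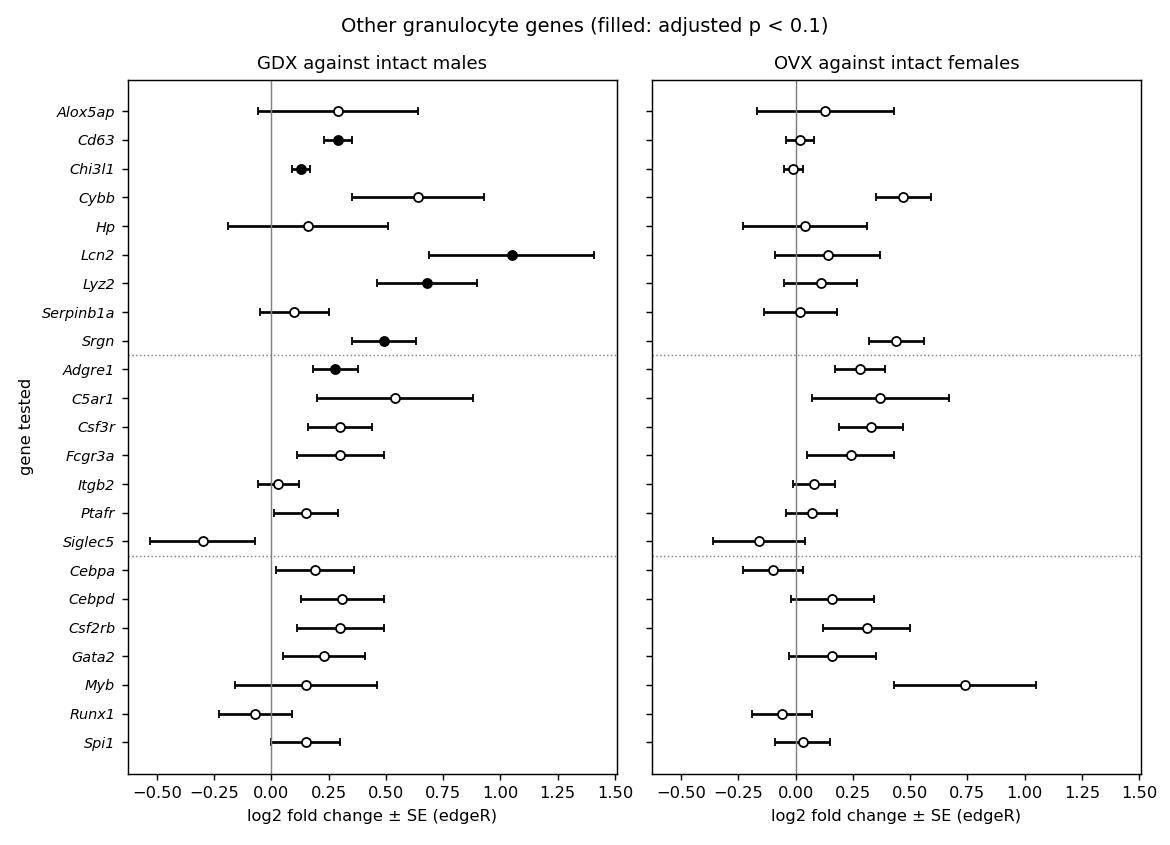
Log2 fold change with SE from edgeR for each tested gene of the 3 other granulocyte lists, in GDX against intact males (left) and OVX against intact females (right). Filled points passed an adjusted p under 0.1, and dotted lines part the lists. In males 6 genes passed and in females 0.

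Lists of other cell types that the tissue block could hold were summed in each library, and the part of each in the granule gene values was not tested. Of all tested genes, 6.78% were called higher in GDX against intact males and 13.4% in either direction. Between the intact sexes 4.01% were called. Counts of called genes in these lists stand beside those shares. Of the lists as set, the erythroid list had the highest Pearson's r with the granule genes over all 22 libraries, and the proliferation list the highest Spearman's rho. It had 12 entries in the table, with Hba-a2 under 2 identifiers, none at 0 in all libraries, and Tfrc as its most abundant gene at 125 CPM, which neurons also express. Its summed level in intact males 1, 2, 3, 5 and 6 was 150, 141, 146, 146 and 152 CPM, and in GDX males 1, 2, 4, 5 and 6 it was 158, 157, 259, 188 and 213 CPM. GDX males 4, 5 and 6 were thus the highest of the males here too. Intact females had 125 to 163 CPM (median 140) and OVX females 155 to 184 CPM (median 169).

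Of 6 erythroid entries tested in males 5 were called higher in edgeR, beside 6.78% of all tested genes, with a median log2 fold change of 1.58 over the list. The alpha globin gene Hba-a2 (ENSRNOG00000047321) was at 1.71 (SE 0.39, edgeR adjusted p = 0.0167) and without GDX males 4, 5 and 6 at 0.65 (adjusted p = 0.34). The beta globin gene Hbb was at 1.45 (SE 0.44, edgeR adjusted p = 0.0544), and at 0.15 without GDX males 4, 5 and 6 (adjusted p = 0.923). Without GDX male 4 it was 0.93, and it was called neither then nor without intact male 2, 5 or 6 or GDX male 6. Among OVX and intact females 0 of 7 entries were called in edgeR, and all 7 had an unadjusted p under 0.05, beside 10.2% of all tested genes. Across 22 libraries the log2 summed levels of granule and erythroid genes had r = 0.9 and rho = 0.83, and r = 0.78 without GDX males 4 and 6. Without GDX males 4, 5 and 6 it was 0.73 (n = 19), and 0.45 within the 7 males left. With all libraries it was 0.94 within males (n = 10), 0.88 within females (n = 12), 0.93 in the short fragment class (n = 15) and 0.19 in the long class (n = 7). Tfrc made up 57.7 to 90.8% of this list in single libraries. Without Tfrc, GDX males 1, 2, 4, 5 and 6 were at 25.5, 30.1, 109, 44.3 and 68.6 CPM and the intact males at 18.7 to 29.8 CPM, and r was 0.91 (rho 0.93). It was then 0.88 without GDX males 4, 5 and 6 (n = 19), 0.94 within the 7 males left, 0.93 in the short class (n = 15) and 0.65 in the long class (n = 7).

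**Figure D4:**
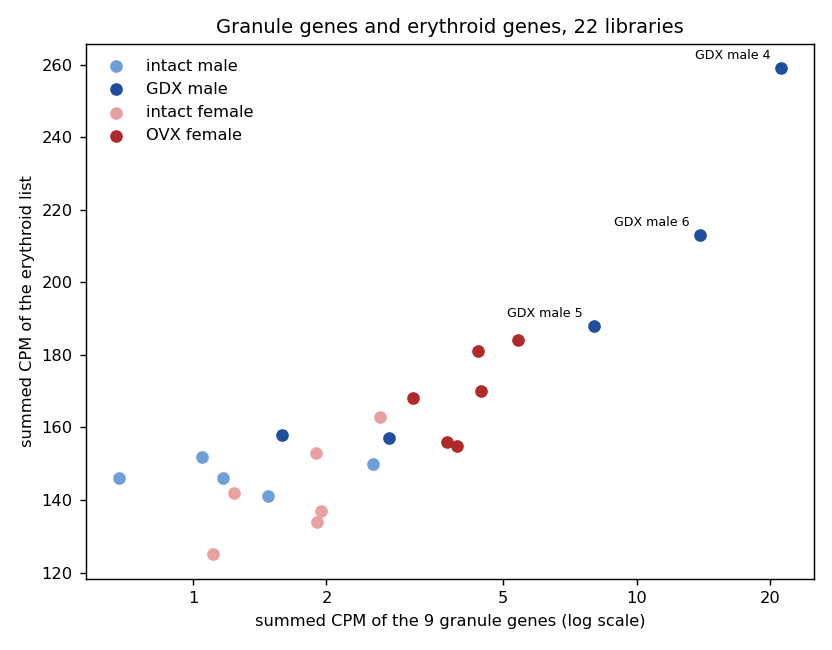
Summed CPM of the 9 granule genes (horizontal, log scale) against summed CPM of the erythroid list (vertical, linear scale) in 22 libraries, coloured by group. GDX males 4, 5 and 6 lie at the upper right.

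Proliferation genes, which mark dividing cells of any kind, had r = 0.87 and rho = 0.87 across the 22 libraries and r = 0.76 without GDX males 4 and 6 or 0.7 without GDX males 4, 5 and 6 (n = 19). Within males r was 0.94 (n = 10), within females 0.76 (n = 12), in the short class 0.88 (n = 15) and in the long class 0.41 (n = 7). All 10 of its genes were tested in males and 1, Top2a, was called higher in edgeR at 0.59 (adjusted p = 0.0358), or 0.31 without GDX males 4, 5 and 6 (adjusted p = 0.588). The summed level was 44.5 to 53.3 CPM in intact males, and 54.9, 55.0, 66.1, 61.4 and 69.1 CPM in GDX males 1, 2, 4, 5 and 6. Aurkb alone had 100 and 117 reads in GDX males 1 and 6 and 7 to 32 in all other libraries. Without Aurkb, GDX males 1, 2, 4, 5 and 6 were at 48.3, 53.8, 64.9, 59.8 and 61.5 CPM, with GDX male 1 inside the intact male range of 44.1 to 51.9 CPM, and r was 0.91 over 22 libraries. With Aurkb the list was at 44.9 to 52.3 CPM in intact and 52.0 to 58.7 CPM in OVX females, with Pcna most abundant at 24.6 CPM and no gene at 0.

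Genes of the meninges and fibroblasts had r = 0.67 and rho = 0.72 with the granule genes, r = 0.7 without GDX males 4 and 6 or 0.66 without GDX males 4, 5 and 6 (n = 19), 0.87 within males (n = 10), 0.36 within females (n = 12), 0.69 in the short class (n = 15) and 0.57 in the long class (n = 7). All 10 tested were called higher in GDX males in edgeR, beside 6.78% of all tested genes, among them the collagen gene Col3a1 at 1.73 (adjusted p = 0.00607) and the choroid and meningeal transporter gene Slc6a13 at 1.57 (adjusted p = 0.00554). With GDX males 4, 5 and 6 left out these were at 0.99 (edgeR adjusted p = 0.198) and 1.04 (adjusted p = 0.134). The summed level was 193, 307, 451, 621 and 485 CPM in GDX males 1, 2, 4, 5 and 6 and 71.7 to 210 CPM in intact males. Intact females had 151 to 485 CPM, OVX females 292 to 519 CPM, and all 10 tested genes had a negative sign in intact males against intact females, 8 of them called in edgeR. The most abundant gene was Col1a1 at 85.7 CPM, and none was at 0. Intact females 4 and 6, at 463 and 485 CPM, thus had levels like those of GDX males 4 and 6, beside 1.9 and 1.89 CPM of granule genes.

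**Figure D5:**
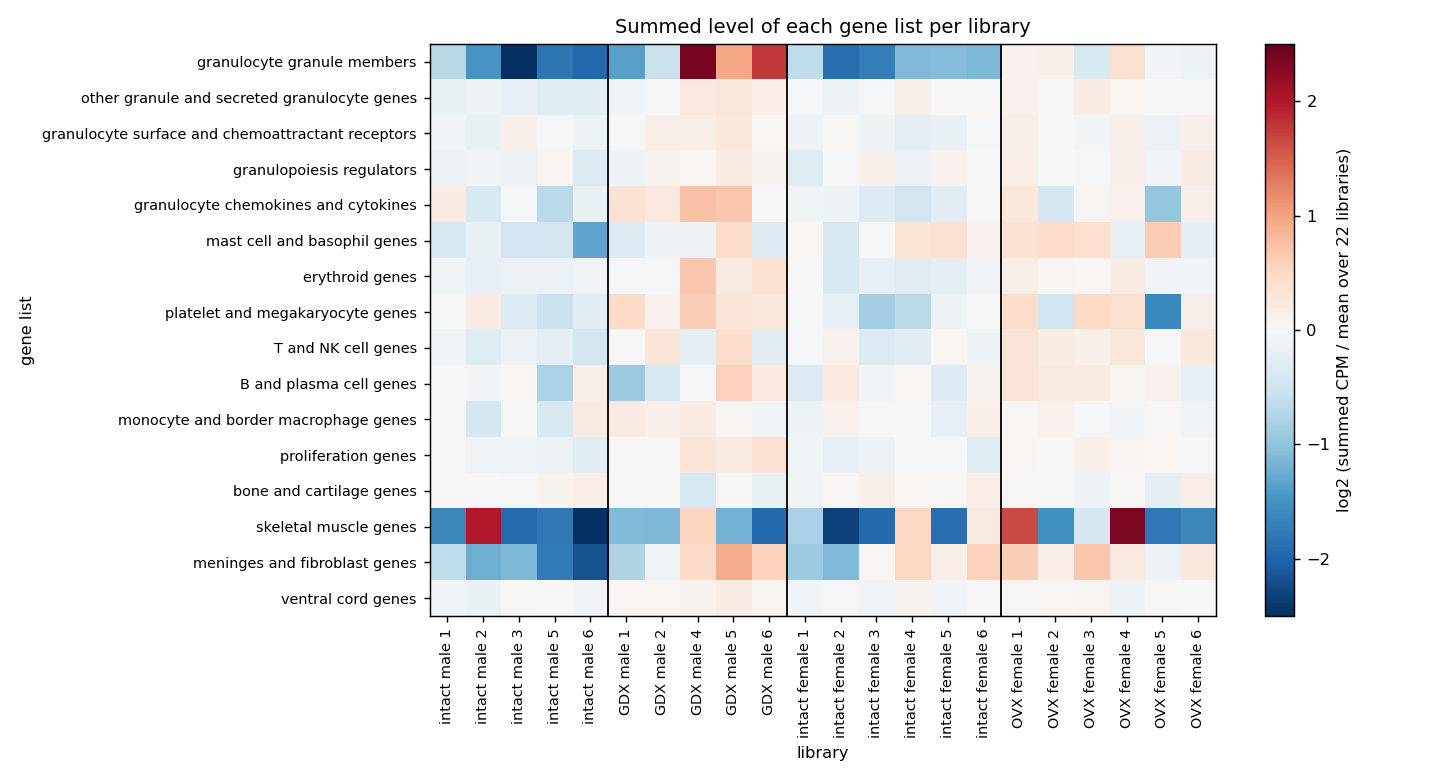
Summed CPM of the granule genes and of each other list (vertical) in each library (horizontal), as the log2 ratio to the list's mean over 22 libraries. The granule genes and the meninges list are above their mean in GDX males 4, 5 and 6, and muscle genes stand out in other libraries.

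Other blood cell lists had lower r over all 22 libraries. T and NK cell genes had r = 0.31 and rho = 0.5, but r = 0.76 without GDX males 4 and 6, 0.71 without GDX males 4, 5 and 6 (n = 19) and 0.68 within females (n = 12), with 1 of 2 tested called higher in GDX males, the granzyme gene Gzmm at 2.26 (SE 0.37, edgeR adjusted p = 0.00554). Gzmm had 12, 18, 13, 17 and 24 reads in GDX males 1, 2, 4, 5 and 6 against 1 to 5 in intact males, and 8 to 14 in intact females and 3 to 20 in OVX females. In CPM its mean was 0.226 for intact and 1.1 for GDX males, and 0.788 for intact and 0.727 for OVX females, so that the intact males were the low group. Its log2 fold change was 2.01 without GDX males 4, 5 and 6 (edgeR adjusted p = 0.149). Cd4, which microglia also express, led that list at 16.9 CPM. Monocyte and border macrophage genes had r = 0.2 and rho = 0.01. Their r was 0.11 without GDX males 4 and 6 and 0.05 without GDX males 4, 5 and 6. Of 8 tested 3 were called higher in GDX males in edgeR, Mrc1 at 0.85 (adjusted p = 0.0105), F13a1 at 0.96 (0.0121) and Clec10a at 1.05 (0.0646). In the fit without GDX males 4, 5 and 6 these were at 0.64 (edgeR adjusted p = 0.267), 0.76 (0.295) and 0.78 (0.563). Clec10a was not called without intact male 3, 5 or 6 or GDX male 4, 5 or 6. Vcan led the monocyte and macrophage list at 127 CPM, and Cd74 had a mean of 118 CPM in intact and 138 CPM in GDX males. The list sums were 208 to 321 CPM in intact and 267 to 324 CPM in GDX males. The r of this list is thus largely that of Vcan and Cd74. Whether its other genes followed the granule genes was not tested. Platelet genes had r = 0.41 and rho = 0.51, r = 0.26 without GDX males 4 and 6 and 0.19 without GDX males 4, 5 and 6. Itga2b was highest at 1.55 CPM, and Gp1bb was at 0. B cell genes had r = 0.35 and rho = 0.34, and r = 0.23 without GDX males 4, 5 and 6. Cd22 was highest there at 2.27 CPM, and Vpreb1 was at 0. The platelet and B cell lists had 1 gene tested each, and neither gene was called in edgeR.

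Mast cell and basophil genes had 1 gene tested, Kit, at 6.8 CPM and not called in males. The list had r = 0.36 and rho = 0.54, r = 0.62 without GDX males 4 and 6 and 0.59 without GDX males 4, 5 and 6. Its sum was nearly all Kit, with 2229 reads beside 34 of Hdc and 1 each of Fcer1a, Cpa3, Tpsb2 and Cma1. These correlations are thus chiefly those of Kit. No granulocyte chemokine or cytokine gene passed the filter in males. The highest was Cxcl3 at 0.519 CPM, and Ccl26 and Tnf had no read. That list had r = 0.46 and rho = 0.41, and r = 0.14 without GDX males 4, 5 and 6. Skeletal muscle genes, which can mark tissue carried over at dissection (not tested here), had r = 0.28 and rho = 0.41. Their r was 0.43 without GDX males 4, 5 and 6. Myh2 was highest at 22.6 CPM, and 0 of 3 tested were called in males. The muscle genes summed to 149 CPM in intact male 2, 118 in OVX female 1 and 191 in OVX female 4, and to 6.49 to 12.2 in the other intact males. In GDX males 1, 2, 4, 5 and 6 they summed to 17.4, 17.1, 54.5, 16.5 and 9.71 CPM, so that GDX male 4 was the highest GDX male here as well. Intact females 4 and 6 had similar muscle levels, at 53.7 and 43.7 CPM, beside 1.9 and 1.89 CPM of granule genes. Bone and cartilage genes had r = -0.64 and rho = -0.46. Their r was -0.29 without GDX males 4 and 6 and -0.31 without GDX males 4, 5 and 6. In the long class it was 0.17 (n = 7). Of 5 tested 1 was called, the aggrecan gene Acan, whose product also coats neurons. Acan was lower in GDX males at -0.47 (edgeR adjusted p = 0.0214) and at -0.2 without GDX males 4, 5 and 6 (adjusted p = 0.448). The other bone genes tested had values of 0.53 (Ctsk), 0.4 (Sp7), 0.35 (Alpl) and -0.04 (Runx2), none called, with a list median of 0.35. Acan was the most abundant of the list at 33.4 CPM, and without it r was 0.33 and rho 0.37. Without Acan and GDX males 4, 5 and 6 r was 0.33 as well. All 15 ventral cord genes had reads and passed the filter, with Mbp of myelin highest at 12300 CPM. Their r was 0.48 and rho 0.46, and r was 0.16 without GDX males 4, 5 and 6. In GDX males 3 of these 15 were called higher, among them Gfap of astrocytes at 0.38 (edgeR adjusted p = 0.00472), and 3 lower, among them the neuronal gene Rbfox3 at -0.33 (adjusted p = 0.024). Without GDX males 4, 5 and 6 Gfap was at 0.38 (edgeR adjusted p = 0.0446) and Rbfox3 at -0.15 (adjusted p = 0.442).

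Over 17649 other genes with at least 50 reads, the pattern most like the summed granule genes, by Pearson's r of log2 CPM in 22 libraries, was that of Hba-a2 (ENSRNOG00000029886) at r = 0.91 and rho = 0.92. This second alpha globin entry had 649, 240 and 429 reads in GDX males 4, 5 and 6, and at most 159 in an intact male. Next were the neutrophil defensin gene RatNP-3b (r = 0.89), the defensin Np4 (0.88), the other Hba-a2 entry (0.87), the immunoglobulin heavy chain gene Ighm (0.87) and Hbb (0.84). The remaining 4 of the top 10 were LOC689064 (0.83), Gnai3 (0.83), Sntb1 (0.81) and Snora68 (0.8). With Spearman's rho 7 of the same 10 genes were on top, without the 2 farthest libraries 5 were, and without GDX males 4, 5 and 6 (n = 19) 4 were. In those 19 libraries r was 0.87 for Hba-a2 (ENSRNOG00000029886), 0.84 for Hbb, 0.78 for RatNP-3b, 0.71 for Ighm and 0.69 for Np4. RatNP-3b had 65, 31 and 63 reads in GDX males 4, 5 and 6 and at most 12 in an intact male. Ighm had 115, 60 and 110 in those GDX males, at most 38 in an intact male and at most 59 in a female.

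For single members, the 3 closest genes differed. Prg2 was closest to Ighm (r = 0.88), RatNP-3b (0.88) and Hba-a2 (0.87), and Epx to Prg2 itself (0.86), Sntb1 (0.84) and Gm24119 (0.83). S100a9 was closest to both Hba-a2 entries (0.89 and 0.86) and RatNP-3b (0.86). Mmp8 had Np4 (0.83), Ighm (0.82) and Prg2 (0.8), and S100a8 had Prg2 (0.83), RatNP-3b (0.82) and Lrif1 (0.79). Mpo stood with Lrif1 (0.84), Sppl2a (0.82) and Hipk3 (0.8), and Camp with AABR07058360.1 (0.77), Bche (0.74) and Slco1a4 (0.73). Globin, defensin or immunoglobulin genes were thus among the closest for Prg2, Mmp8, S100a8 and S100a9, and not for Epx, Mpo or Camp. With GDX males 4, 5 and 6 left out these 21 correlations ran from 0.53 to 0.85, and 4 of the 21 genes were still among the closest 3.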

How the data were processed

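Inputs were the deposited raw counts, described in the labels as aligned with TopHat2 2.0.13 to Rnor_6.0 and counted with Subread; the study's methods name Hisat2 and featureCounts. Strand and multimapping settings are not stated. The members and all gene lists were chosen with earlier results of these data known. Genes were fitted with edgeR 4.0.16 (R 4.3.3; filterByExpr, TMM, quasi-likelihood test, Benjamini-Hochberg adjustment over all tested genes, called at adjusted p under 0.1), separately for each pair of groups and with a sex by gonadectomy term over 22 rats. DESeq2 1.42.0, edgeR's likelihood ratio test, other filters, fragment class, rat number and left-out libraries were run as alternatives. CPM used TMM factors over all 22 libraries. Sums, intervals, correlations and promoter motif searches were computed in Python 3.11.15 with numpy, scipy and pandas. No set test was run.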

Additional observations from a re-analysis of the deposited data

Results flagged for a closer look

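In all, 4 results met a preset rule. Within-group gaps were tested by Dixon's ratio in 134 groups, of which 3 passed (2.24%), where chance passes about 1 in 20. Epx in OVX female 2 was at 0.557 CPM (9 reads), against 0.173 to 0.312 CPM in the other OVX females. F13a1, a monocyte and macrophage gene, was at 1.51 CPM (23 reads) in intact male 6, against 3.26 to 3.47 CPM in the other intact males. Cd163, a macrophage scavenger receptor gene, was at 3.83 CPM (54 reads) in GDX male 5, against 1.86 to 2.42 CPM in the other GDX males. Gzmm had an interaction of sex and gonadectomy of 2.35 in log2 units (SE 0.49, edgeR adjusted p = 0.0973), called in 11 of 31 alternatives with adjusted p from 0.00868 to 0.857.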

How the results depend on the processing

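The log2 ratio of summed granule CPM in males (2.78) was 2.34 as a difference of mean log2 summed CPM, 0.65 without GDX males 4, 5 and 6 (chosen after the values were seen) and 2.24 to 3.12 with 1 library left out; in females (1.23) it was 1.27, 0.88 in the short class and 1.12 to 1.37. The mean over the members of log2 CPM differed by 1.39 and 0.69. Members called in GDX males (1) were 6 with no filter (0 without GDX males 4, 5 and 6), 0 with a 1 CPM filter (none tested), 4 with all 22 rats in 1 fit, 0 with fragment class as a term (1 tested, unadjusted p under 0.05), 0 in the short class (6 tested, 6 with unadjusted p under 0.05, 2.83% of all genes called), 0 with rat number as a block, 1 to 2 with 1 library left out and 0 without GDX males 4, 5 and 6. Other granulocyte genes called there (6) were 2, 0 and 2 with class term, short class and block, and 1 to 9 with 1 library left out, 0 without GDX males 4, 5 and 6 and 1 with no filter as well. Of all genes, those fits called 7.48% with no filter, 14.1% with a 1 CPM filter, 15.4% with all 22 rats and 5.33% with the class term. They called 8.53% with the block, 7.99 to 16.2% with 1 library left out and 0.297% without GDX males 4, 5 and 6 (1.31% with no filter as well). In OVX females members (0) were 1 at an unadjusted p under 0.1 and by the likelihood ratio test, and 1 without intact female 1 or 6; other genes (0) were 5, with DESeq2 2 and by likelihood ratio 1. Of all genes, 16.9% passed unadjusted, 1.17% with DESeq2 and 0.671% by likelihood ratio. Without intact female 1 and without intact female 6 it was 0.753% and 0.0133%. Between intact sexes other genes (2) were 5 unadjusted, 1 with no filter, 0 in the short class, 0 with the block and 0 to 4 with 1 library left out. Of all genes, 22.9% passed unadjusted, 2.39% with no filter, 0.225% in the short class and 1.71% with the block. With 1 library left out it was 2.33 to 5.25%. For the interaction, 1 member and 4 other genes passed unadjusted, beside 19.2% of all genes. Lyz2 was at -0.03, near no change, without GDX males 4, 5 and 6. Rats of the same number share only that number. Low counts, few rats per class and unstated counting settings limit every value.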
